A study of Mus musculus with 9 samples.

Results

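Genes of the collecting duct intercalated cell were examined in RNA from pups homozygous for the Glis3 mutation (Glis3zf/zf) and from wild-type (WT) pups, all of the C57BL/6 strain and sampled on postnatal day 3 (PND3). The set held 10 genes, namely Slc26a4, Rhbg, Rhcg, Foxi1, Atp6v1b1, Atp6v0a4, Atp6v1g3, Atp6v0d2, Slc4a9 and Car2, of 28786 genes named on the array. They were chosen by name, with their PND3 ratios already known, so the values below describe these genes and no test is attached to them. Every non-control probe carrying a member's name was used, which gave 12 probes: 2 each for Atp6v0a4 and Atp6v1g3 and 1 for each other gene. A pool from 2 mutant pups was set against a pool from 2 WT pups on 2 Agilent 2-colour arrays, with mutant RNA labelled in Cy3 on the first (the Cy3-mutant array) and in Cy5 on the second (the Cy5-mutant array). Each genotype is therefore 1 pool read on a technical pair of arrays, and no measure of the spread between pups exists. The labels give pancreas as the tissue and do not state the sex of the pups.

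Intercalated cells are the acid-base cells of the kidney's connecting tubule and collecting duct, where they lie scattered among the principal cells that handle salt and water. Type A cells pump protons into the urine with an apical vacuolar proton pump (V-ATPase), and type B cells secrete bicarbonate through the apical exchanger pendrin. Both rely on carbonic anhydrase to make protons and bicarbonate and on the forkhead transcription factor Foxi1, which mouse intercalated cells need in order to differentiate. Rh glycoproteins, which move ammonia, are found mainly in type A and other non-B intercalated cells and also in principal cells.

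3 probe sequences are shown because the values of these V-ATPase subunit genes rest on them; where each lies in its transcript was not established here. Each is 60 bases long and keeps at least 1 reading frame without a stop codon; none has a part set in capitals.
Atp6v1g3, probe A_52_P421082: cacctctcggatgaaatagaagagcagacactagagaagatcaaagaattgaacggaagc
Atp6v1b1, probe A_52_P169982: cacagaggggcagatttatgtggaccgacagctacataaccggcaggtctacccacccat
Atp6v0a4, probe A_52_P412167: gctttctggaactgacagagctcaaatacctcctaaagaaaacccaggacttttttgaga
The other Atp6v1g3 probe, A_51_P514267, has a stop codon in all 3 frames and a GC content of 20%, against 43.3% for the probe printed above.

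Promoters of 6 of the 10 genes were matched in the RefSeq promoter table (build GRCm38.p6), which covers 250 bases before to 50 after a gene's start. The promoters of Slc26a4, the member with the lowest ratio, and of Atp6v1b1, the member with the highest, are printed with matched motifs in capitals.
Slc26a4, chr12:31559935-31560234, minus strand: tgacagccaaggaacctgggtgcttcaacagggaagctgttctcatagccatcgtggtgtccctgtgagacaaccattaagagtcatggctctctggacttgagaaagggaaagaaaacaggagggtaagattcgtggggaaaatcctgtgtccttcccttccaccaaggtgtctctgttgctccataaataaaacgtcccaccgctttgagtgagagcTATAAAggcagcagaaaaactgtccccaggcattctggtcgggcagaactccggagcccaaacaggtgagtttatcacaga
Atp6v1b1, chr6:83742767-83743066, plus strand: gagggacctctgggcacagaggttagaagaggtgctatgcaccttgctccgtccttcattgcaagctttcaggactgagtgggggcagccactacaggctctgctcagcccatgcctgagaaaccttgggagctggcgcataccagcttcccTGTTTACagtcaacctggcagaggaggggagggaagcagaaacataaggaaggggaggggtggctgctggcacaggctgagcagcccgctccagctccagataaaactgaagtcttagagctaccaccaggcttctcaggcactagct
The motifs searched, on both strands, were TGTTTAC (a core bound by forkhead factors), TGGGGGGT (a core bound by Glis factors) and TATAAA (the TATA box), and no matches in the members overlapped. TGTTTAC was present in 1 of the 6 member promoters, that of Atp6v1b1, 98 bases before the start, and in 3.65% of all 32851 promoters. TATAAA was present in 1 of the 6, that of Slc26a4, 31 bases before the start, and in 13.6% of all promoters. TGGGGGGT was present in 0 of the 6 and in 1.53% of all promoters.

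Before the ratios are read, the labelled tissue has to be set against its markers. Of 10 islet genes, Ins1, Gcg, Ppy and Mafa did not meet the background criterion given below. The 6 islet genes measured had a median signal of 67.5 in the mutant pool, against 70.9 in the WT pool, and the 8 acinar genes measured had 57.6 in the mutant pool, against 56.5 in the WT pool. In contrast, 16 of 16 principal cell genes, 18 of 18 proximal tubule genes and 8 of 8 podocyte genes were measured, and the proximal tubule list had a median signal of 12300 in the mutant pool, against 12100 in the WT pool. The defining markers of pancreas were thus dim or absent and those of kidney bright in both pools, so the values below are those of these pools and are not read as pancreas. All 10 intercalated cell genes exceeded background clearly in each pool, on each array. Glis3, the mutated gene, had scanner signals of 3.88 and 3.39 in the mutant pool, not well above background on either array, against 22.1 and 21.5 in the WT pool, well above background on both. It was at least 1.16-fold lower in the mutant pool, with the mutant level raised to that of the dimmest probe well above background. The levels behind this bound include the added offset of 50, which is larger than either WT signal of Glis3. The bound is therefore drawn toward no difference and does not give the size of the difference. Where the Glis3 probe lies relative to the mutation was not established here. A gene was measured when its brightest probe was well above background in at least 1 pool on both arrays, which held for 20922 genes.

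The members divided into genes with lower ratios and genes near no difference. Slc26a4 and Rhbg, for chloride-bicarbonate exchange and ammonia transport, were lower in the mutant pool by more than 2-fold on each array. The V-ATPase subunit genes Atp6v1g3 and Atp6v0d2 were lower by less than 2-fold, and the other 6 genes lay within a mean log2 ratio of -0.11 to 0.19. Ratios are log2 of mutant over WT after loess normalization, an intensity-dependent correction of the dye difference within each array. In these bulk pools, fewer cells of a type and less RNA per cell cannot be told apart.

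**Figure D1:**
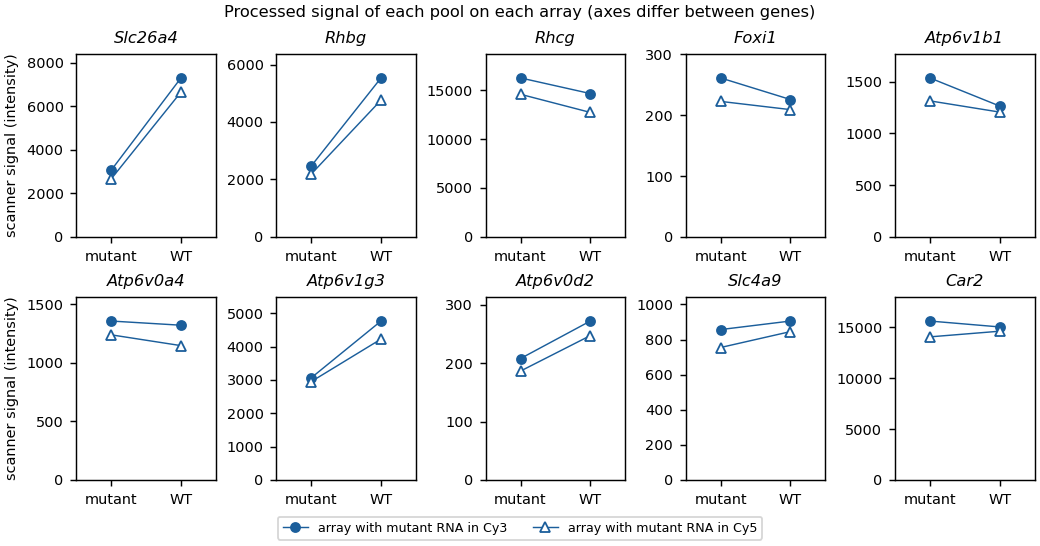
Processed scanner signal (intensity) of the mutant and WT pools for each of the 10 genes; circles are the Cy3-mutant array, triangles the Cy5-mutant array, lines join the pools of an array, and axes start at 0 and differ between genes. Slc26a4 and Rhbg show the steepest lines, from mutant signals of 3060 and 2467 against WT signals of 7299.5 and 5534 on the Cy3-mutant array.

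The apical transporter of type B cells came lowest. Slc26a4 (gene ID 23985, chromosome 12, 31519814 to 31560055 on GRCm38.p6) encodes pendrin, which exchanges chloride for bicarbonate at the apical membrane. Its signal was 3060 and 2662 in the mutant pool on the Cy3-mutant and the Cy5-mutant array, against 7299.5 and 6650 in the WT pool on the same arrays; each pair of values below keeps this order of arrays. Both mutant values lay below both WT values. The log2 ratio was -1.15 on the Cy3-mutant array and -1.37 on the Cy5-mutant array. The mean of -1.26 ± 0.16 (SD over the technical pair of arrays) corresponds to a 2.39-fold lower level in the mutant pool, and 0.0908% of all genes had a lower ratio.

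Slc4a9, the other bicarbonate transporter among the members, encodes a basolateral anion exchanger of type B cells and lay close to no difference. Its signal was 857 and 755 in the mutant pool, against 905.5 and 845 in the WT pool. On each array the mutant value was the lower one. Across the arrays the pools overlapped, since the higher mutant value exceeded the lower WT value. Its log2 ratio was -0.01 with mutant RNA in Cy3 and -0.20 with mutant RNA in Cy5, a mean of -0.11, and 25.6% of all genes had a lower ratio. The type B cell exchangers of the apical and the basolateral membrane thus had unlike ratios in the same pools.

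The Rh glycoproteins also differed from each other. Rhbg (gene ID 58176, chromosome 3, 88242874 to 88254739) encodes the basolateral ammonia transporter of collecting duct cells. It gave 2467 and 2187 in the mutant pool, against 5534 and 4762 in the WT pool, with no overlap. The log2 ratios were -1.21 and -1.03, and the mean of -1.12 ± 0.13 (SD over the pair of arrays) corresponds to a 2.17-fold lower level. Only 0.124% of all genes had a lower ratio.

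Rhcg (chromosome 7, 79593363 to 79617657), the ammonia transporter found at the apical membrane, lay on the other side of 0. It gave 16253 and 14580 in the mutant pool, against 14654 and 12726 in the WT pool. The mutant value was the higher on each array, although the pools overlapped across the arrays. The log2 ratios of 0.20 and 0.14 averaged 0.17. With median centring, which sets the median of each array's non-control spots to 0, dim spots included, with no intensity-dependent correction, the mean was -0.08, so the direction of Rhcg depended on the scaling.

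The V-ATPase subunits that mark intercalated cells split in the same manner. Atp6v1g3 (gene ID 338375, chromosome 1, 138273738 to 138289462), encoding the G3 subunit of the peripheral stalk, was the lowest of them. The printed probe gave 3064 and 2951 in the mutant pool, against 4767 and 4226 in the WT pool. Its log2 ratios were -0.66 and -0.50, a mean of -0.58 ± 0.12 (SD over the pair of arrays), or 1.49-fold lower in the mutant pool, with 0.86% of all genes lower. The other Atp6v1g3 probe read between 2.27 and 3.81 in both pools and was not well above background in either, so no ratio is given for it and the value of this gene rests on a single probe.

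Atp6v0d2 (chromosome 4, 19876838 to 19922566) encodes a d subunit of the membrane-bound sector that osteoclasts and macrophages also make. It gave 208 and 187 in the mutant pool, against 272 and 247 in the WT pool, without overlap. The log2 ratios of -0.27 and -0.37 averaged -0.32, or 1.25-fold lower, and 4.53% of all genes had a lower ratio.

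Atp6v1b1 and Atp6v0a4, whose human counterparts are mutated in inherited distal renal tubular acidosis, did not share the lower values. Atp6v1b1 (chromosome 6, 83743017 to 83758855) encodes the B1 subunit of the catalytic sector and gave 1536 and 1314 in the mutant pool, against 1264 and 1206 in the WT pool. Both mutant values lay above both WT values, with log2 ratios of 0.31 and 0.07 and a mean of 0.19. Median centring gave 0.21 and -0.17, so its arrays then differed in sign.

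Atp6v0a4 (chromosome 6, 38048483 to 38124586) encodes the a4 subunit of the membrane sector and was read by 2 probes. The printed probe gave 1359 and 1241 in the mutant pool, against 1323 and 1148.5 in the WT pool, with log2 ratios of -0.02 and 0.15. Probe A_51_P116946 gave 1134 and 993 in the mutant pool, against 949 and 821 in the WT pool, with log2 ratios of 0.17 and 0.30. Neither probe was lower in the mutant pool on average, at 0.06 and 0.24, although the printed one had a mean of -0.11 with median centring.

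Foxi1 (chromosome 11, 34204341 to 34208089), the transcription factor of the set, was close to equal. Its signal was 261 and 223 in the mutant pool, against 226 and 209 in the WT pool. The mutant value was slightly higher on each array, although the pools overlapped across the arrays. The log2 ratios were 0.09 and 0.09, and with median centring they were 0.05 and -0.05. Car2 (chromosome 3, 14886269 to 14900770), the cytosolic carbonic anhydrase that red cells and osteoclasts also carry, gave 15615 and 14060 in the mutant pool, against 15035 and 14616 in the WT pool. Its log2 ratios of 0.08 and -0.06 had opposite signs, with a mean of 0.01, and a mean of -0.24 with median centring.

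**Figure D2:**
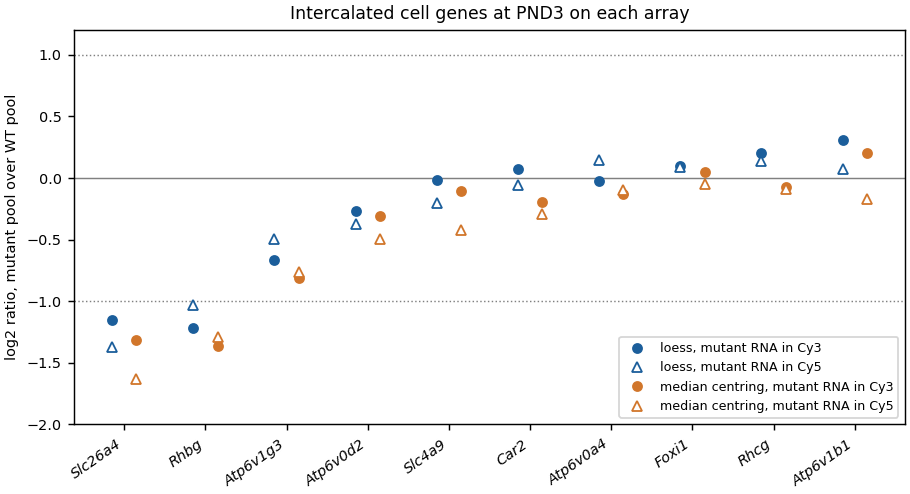
Log2 ratio of the mutant pool over the WT pool for each gene, ordered by its mean after loess; circles are the Cy3-mutant array, triangles the Cy5-mutant array, blue is loess, orange is median centring, and dotted lines mark 2-fold. Slc26a4 and Rhbg lie beyond the 2-fold line on both arrays under both scalings, and the next gene, Atp6v1g3, lies at -0.66 and -0.50 with loess.

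Set against all genes, 2 of the 10 members were lower by at least 2-fold on each array, where 0.158% of the 20922 genes were, and 0 were higher by at least 2-fold, where 0.0335% were. With median centring the counts were again 2 and 0, against 0.22% and 0.0287% of all genes. The members were picked with these ratios in view, so nothing is read from that contrast. The gene just inside the threshold was Rhbg, whose ratio nearer to 0 was -1.03, and the gene just outside was Atp6v1g3, whose ratio nearer to 0 was -0.50. On both arrays, 5 members were below 0 and 3 above 0, against 37.8% and 30.8% of all genes. With median centring, 8 members were below 0 on both arrays and 0 above 0, against 54.3% and 19.2% of all genes, and the median of the 20922 measured genes was -0.11, since that scaling centres all non-control spots and not the measured genes. Relative to that shift, Slc26a4 at -1.48, Rhbg at -1.33 and Atp6v1g3 at -0.79 were still lower, and these 3 passed 1.5-fold on each array with median centring, as 1.22% of all genes did; 0 members were higher by 1.5-fold, where 0.105% of genes were. With loess 2 members passed that limit, against 0.626% of all genes. By scanner signal, both mutant values lay below both WT values in 4 members and above them in 1, against 20.3% and 19.3% of all genes. Over the 10 genes the median log2 ratio was -0.05 with loess, against -0.01 for all genes, and -0.25 with median centring, against -0.11 for all genes.

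The technical spread gives a coarse guide to how small a ratio can be read. The ratios of a member differed between the arrays by 0.01 to 0.24 log2 units, and over all genes that difference had a median of 0.11 and a 95th percentile of 0.32. For genes with a signal of 3000 to 10000, the range of Slc26a4, Rhbg and Atp6v1g3, the 95th percentile was 0.34, below the size of each of their mean ratios. For genes with a signal of 100 to 300 it was 0.30, just under the size of the mean ratio of Atp6v0d2. The mean ratios of the other 6 members were smaller than the 95th percentile for their own range of signal. A mean over the arrays varies less than the difference between them, so these percentiles set no exact limit for a mean ratio. The spread between the arrays covers labelling and hybridisation only, not the difference between litters or pups.

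**Figure D3:**
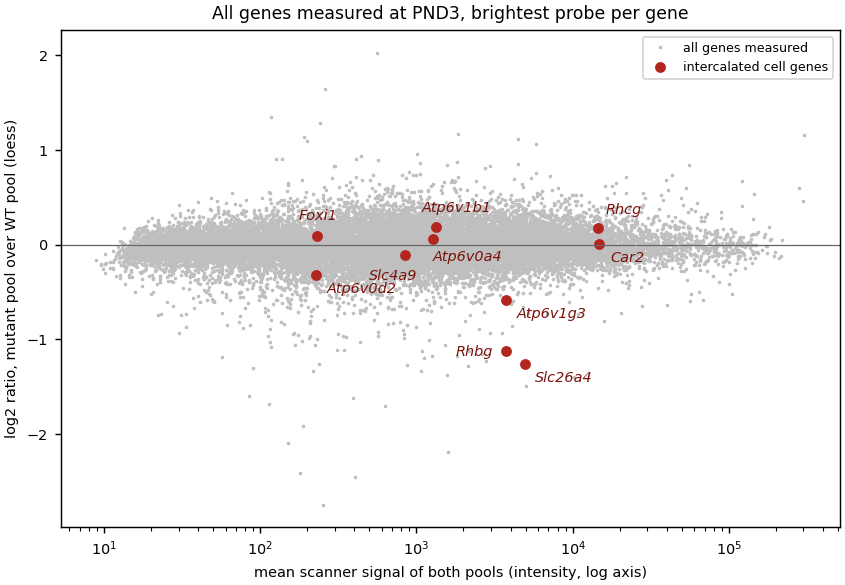
Mean log2 ratio after loess (vertical) against the mean scanner signal of both pools (horizontal, log axis) for the 20922 genes measured (grey) and the 10 intercalated cell genes (red). Slc26a4 at -1.26 and Rhbg at -1.12 lie at the lower edge of the cloud for their brightness, and Rhcg and Car2, at the right of the 10, lie near 0.

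Further genes of intercalated cells were taken from a list of 22, of which 20 were measured. Among the 20, 9 were lower and 8 higher on both arrays, where 37.8% and 30.8% of all genes were. The median log2 ratio of the 20 was -0.02. Of these, 2 were lower by at least 1.5-fold on each array and 0 were higher by as much; among the members it was 2 and 0, and among all genes 0.626% and 0.258%. Hmx2, a homeobox factor, stood at -0.79 and -0.86 with mean signals of 498 in the mutant pool, against 926 in the WT pool. Car15, a membrane-bound carbonic anhydrase, stood at -0.68 and -0.81 with 1640 in the mutant pool, against 2770 in the WT pool. Slc4a1, the basolateral anion exchanger of type A cells and a major red cell protein, stood at -0.70 and -0.52 with 1270 in the mutant pool, against 1970 in the WT pool. Slc4a1, a gene of both type A cells and red cells, thus also had a lower ratio, and which cells its signal came from was not tested. The list as a whole was centred near 0.

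The widely expressed V-ATPase subunits offered a comparison for the member subunits. All 18 were measured, and 6 were lower and 7 higher on both arrays, where 37.8% and 30.8% of all genes were. None differed by 1.5-fold on each array, and their means ran from -0.22 (Atp6v0e) to 0.28 (Atp6ap1). The paralogs of the members were Atp6v1b2 at 0.15, Atp6v0a1 at 0.16, Atp6v0a2 at 0.21, Tcirg1 at 0.09, Atp6v1g1 at 0.18 and Atp6v0d1 at 0.08. Atp6v1g3 and Atp6v0d2 were thus lower than their paralogs Atp6v1g1 and Atp6v0d1, whereas Atp6v1b1 at 0.19 and Atp6v0a4 at 0.06 lay near theirs. With median centring the paralogs lay between -0.16 (Atp6v0d1) and 0.03 (Atp6v0a2), and Atp6v1g3 at -0.79 and Atp6v0d2 at -0.41 were again lower. These differences between genes within 1 pair of pools were not tested.

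Slc26a4 had the lowest ratio of the Slc26 genes measured. Of 10 other Slc26 genes, 8 were measured, with loess without any difference of 1.5-fold on each array, and they included Slc26a7, an anion transporter of the collecting duct and stomach, at -0.58, Slc26a3 at -0.41 and Slc26a6 at 0.18. By the scanner's own ratios, which carry no offset, Slc26a7 and Slc26a3 stood at -0.78 and -0.78, and Slc26a4 at -1.29. In the Slc4 family, 6 of 9 listed genes were measured, and the bicarbonate transporters Slc4a7 and Slc4a3 stood at 0.47 and 0.41, on the other side of 0 from Slc4a1 at -0.61. Of 15 other carbonic anhydrases, all measured, 2 passed 1.5-fold lower on each array, as 0.626% of all genes did. Besides Car15 this was Car3, the carbonic anhydrase of fat and muscle, at -1.04 and -1.08, and Car4 stood at -0.42. Of the Rh family, Rhag was not well above background and Rhd stood at -0.03, and of the Foxi family Foxi2 stood at 0.00.

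Principal cells, the neighbours of intercalated cells in the same tubule, were not centred below 0 as a list with loess. Of 16 genes measured, 10 were higher and 4 lower on both arrays with loess, where 30.8% and 37.8% of all genes were. Their median was 0.15 with loess and -0.03 with median centring, against -0.01 and -0.11 for all genes. Avpr2, the vasopressin receptor, stood at 0.60. Kcne1, a potassium channel subunit, stood at -0.69 and was alone among them in passing 1.5-fold lower on each array, and Hsd11b2, the enzyme that inactivates glucocorticoids, stood at -0.70. The ureteric epithelium list had a median of -0.05 over 11 genes with Wnt7b at 0.74, the thick limb and distal tubule list 0.02 over 12 genes, and the proximal tubule list 0.01 over 18 genes. With median centring these medians were -0.26, -0.18 and -0.23, beside -0.25 for the 10 intercalated cell genes. None of these lists was tested against the intercalated cell genes.

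**Figure D4:**
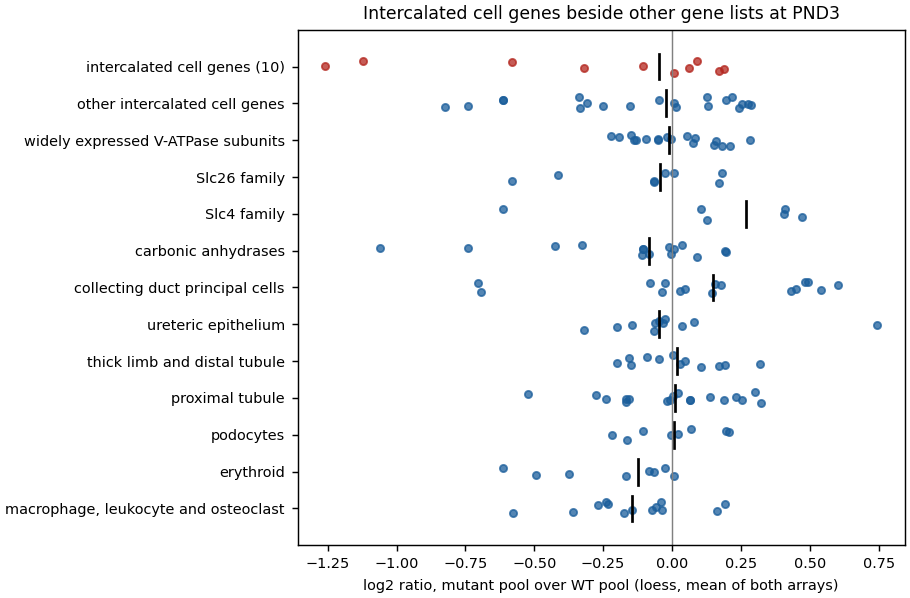
Mean log2 ratio after loess of each measured gene (points) in the intercalated cell genes (red) and in other lists (blue), with the list's median as a black bar; points are spread vertically for visibility. The 10 genes run from -1.26 to 0.19, and the principal cell genes from -0.70 to 0.60.

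Markers of other cell types that carry member genes are given beside these values. Of 13 erythroid genes, 8 were measured, 6 of these were lower and 0 higher on both arrays, where 37.8% and 30.8% of all genes were, and the summed signal was 57560 and 57770 in the mutant pool, against 82590 and 78070 in the WT pool. Most of that sum came from Hba-a1, an alpha globin, which stood at -0.50 with mean signals of 53500 in the mutant pool, against 75300 in the WT pool. The list's median signal was 107 in the mutant pool, against 111 in the WT pool, and its median log2 ratio was -0.12. Slc4a1 and Epb42, red cell membrane proteins, stood at -0.61 and -0.37. Alas2 stood at -0.07, with mean signals of 2550 in the mutant pool, against 2670 in the WT pool. Klf1, Rhd and Car1 lay between -0.08 and 0.01. Rhag, Ermap and Hbb-bh1 were among those not measured above background. Of 13 macrophage, leukocyte and osteoclast genes, all measured, 9 were lower and 2 higher on both arrays, where 37.8% and 30.8% of all genes were, with summed signals of 28890 and 26290 in the mutant pool, against 34580 and 31480 in the WT pool. Most of these sums came from Lyz2, with mean signals of 16900 in the mutant pool, against 20600 in the WT pool. Tyrobp, a signalling adaptor of myeloid cells, stood lowest of the list at -0.58. The 2 genes higher on both arrays were Acp5 at 0.19 and Csf1r at 0.165. The pools also differed in gonadal and sex-linked transcripts. Of 12 ovary and oocyte genes, 11 were lower and 1 higher on both arrays, where 37.8% and 30.8% of all genes were. Their summed signals were 572 and 487 in the mutant pool, against 3196 and 2898 in the WT pool. Of 4 Y-linked genes, 3 were measured and all 3 were higher on both arrays, where 30.8% of all genes were. Their summed signals were 648 and 605 in the mutant pool, against 205 and 204 in the WT pool. The part of red cells, myeloid cells or the sex of the pups in the ratios of Slc26a4, Rhbg, Atp6v1g3 and Atp6v0d2 was not tested.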

How the data were processed

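The PND3 files deposited by the authors hold spot and local background intensities and processed intensities, per the file headers, which are background-subtracted and dye-normalized. The log10 ratio of Cy5 to Cy3 is defined per the file headers. The value table that the authors deposited is in log2 units with mutant over WT, since its slope on the scanner ratio in log2 units was -1 and 1 (r = -0.9996 with mutant RNA in Cy3 and 0.9997 with mutant RNA in Cy5; medians 0). Its making is not given in the sources used. Agilent Feature Extraction is version 8.1 in the submitters' processing notes and 9.1.3.1 in the headers. From 500 ng of RNA per pool, amplified and dye-labelled per the labels, each array gave 43379 non-control spots. No spot was saturated, 18 and 26 outlier spots were left out, and 72.8% to 76.6% of spots per channel were well above background. With only 2 arrays, precision is limited.

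R 4.3.3 and limma 3.58.1 were used: normexp background with an offset of 50, within-array loess (weight 0 for controls), and the sign turned where mutant RNA was in Cy3. The brightest probe stood for a gene. Of 41174 probes, 22951 took a RefSeq symbol through their accession. The offset draws dim ratios toward 0. Members and lists were chosen with earlier results of these data known. Outside the members, Glis3 and V-ATPase paralogs, genes were named if at least 1.5-fold apart on both arrays or among the 3 largest ratios of a list. Named outside that rule are markers not measured above background and the genes of the closing observations. Alas2, Klf1, Car1, Acp5 and Csf1r are also named outside it, since they lay near or above 0. The embryonic arrays were not used here, since their probe sets were not paired with gene names, so the limma fit planned for them was not run.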

Additional observations from a re-analysis of the deposited data

How the results depend on the processing

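The count of 2 members lower by 2-fold on each array, Slc26a4 and Rhbg, was the same 2 genes under all 11 alternatives: median centring, the scanner's ratios, the deposited value table, offsets of 16 and 0, no background subtraction, the mean of probes, no filter, a filter on both pools, and each array alone. These alternatives are not independent. Both filter settings left every member's ratio unchanged, and the mean of probes changed only that of Atp6v0a4. The deposited value table repeated the scanner's ratios. The median over the 10 genes was -0.05 with loess and -0.25 with median centring, which moved all genes to -0.11, and ran from -0.13 without the Cy3-mutant array to -0.019 without the Cy5-mutant array. Slc26a4 ran from -1.48 to -1.15, Rhbg from -1.33 to -1.03, Atp6v1g3 from -0.79 to -0.50, Atp6v0d2 from -0.41 to -0.27 and Slc4a9 from -0.26 to -0.01, all below 0 in 11 of 11 alternatives. Atp6v1b1 was above 0 in 11 of 11. Rhcg and Foxi1 were below 0 in 1 of 11, Atp6v0a4 in 2 and Car2 in 4. Among all genes, 33 were 2-fold lower and 7 higher with loess, 154 and 22 with the scanner's ratios, 90 and 10 with an offset of 0, and 61 and 9 with an offset of 16. With loess, both counts thus rose as the offset fell from 50 to 16 and 0, and the offset draws dim ratios toward 0. Whether the genes gained were dim was not tested. No paired analysis was possible because each genotype is 1 pool at PND3. The embryonic fit and its alternatives were not run. Foxi1 and Atp6v0d2, with signals under 300, are the members whose ratios the offset draws most toward 0.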

Other observations

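Several further intercalated cell genes, singled out after their values were seen, were lower in the mutant pool on both arrays. Hepacam2, a cell surface protein, stood at -0.74 and -0.49, with mean signals of 272 in the mutant pool, against 452 in the WT pool. Atp6v1c2, a V-ATPase C subunit, stood at -0.30 and -0.37, the receptor gene Kit at -0.31 and -0.31, and Aqp6, a water channel of type A cells, at -0.21 and -0.29. In the other direction Dmrt2 stood at 0.38 and 0.20. With median centring Hepacam2, Atp6v1c2, Kit and Aqp6 averaged -0.73, -0.52, -0.47 and -0.37, and Dmrt2 averaged 0.13.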
